A study of Brassica rapa subsp. pekinensis with 6 samples.

Results

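Aquaporins are membrane channels that let water, and in some families small solutes, pass between compartments of the plant cell. The families are named after where they act or what they resemble. PIP proteins sit in the plasma membrane, TIP proteins in the tonoplast around the vacuole, NIP proteins resemble nodulin 26 of soybean nodules and include channels for boric acid, and SIP proteins are small basic channels found in the endoplasmic reticulum. In leaves, PIP and TIP channels set how easily water moves out of the veins and through the mesophyll, and in maize PIP1 proteins reach the plasma membrane in complexes with PIP2 proteins.

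Transcripts of 18 aquaporin genes were described, out of 13225 genes in the authors' deposited table. A gene was taken as an aquaporin where the description of its best protein hit contained that word. By their names 6 of the 18 were PIP, 4 TIP, 5 NIP and 3 SIP genes. Novel00732 and Novel00578 were placed in the PIP1 subgroup by the hit names plasma membrane aquaporin 1b and 1c. The study compared leaf messenger RNA of autotetraploid Chinese cabbage (Brassica rapa subsp. pekinensis), which carries 4 copies of the genome of a line, with that of doubled haploid plants, made by doubling a haploid genome. Plants of both kinds came from the same doubled haploid line, called FT, so the groups share its genotype and a single line stands for each ploidy. They were grown alike, and mature leaves were taken from the main stem, beneath its first branch, at bolting. Each group had 3 libraries, given by the submitters as biological replicates, and nothing in the labels says whether a library held 1 plant or several.

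For each gene and group, the authors' deposited table held a single mean of normalised read counts, and it held genes with an adjusted p under 0.05 in the authors' test. These were 37.8% of the 34980 genes tested, with 18.9% higher and 18.9% lower in autotetraploid leaves. The number tested was worked back from the deposited raw and adjusted p-values, so all shares of genes tested rest on that estimate. Aquaporin genes that did not pass were not analysed here, so the share of aquaporin genes that changed cannot be given. The counts are not per unit of gene length, and levels were compared between groups for the same gene, not between genes. Size factors ran from 0.926 to 1.01 in the autotetraploid and from 0.917 to 1.12 in those of doubled haploids. For 3866 genes the reads of each library could be worked back, and pairs of libraries of a group differed by a mean of 0.384 to 0.407 in the autotetraploid group and of 0.339 to 0.355 in the other on the log2 scale, so that no library stood apart. The words for mesophyll genes (Rubisco small chain, chlorophyll-binding protein and carbonic anhydrase) matched 53 listed genes, of which 8 were carbonic anhydrases described as mitochondrial and so mark no mesophyll. The other 45, with 33 rises and 12 falls, had summed means of 1144168 in autotetraploid leaves and 704089 in doubled haploid leaves. In bulk leaf RNA, fewer cells of a type and less RNA per cell cannot be told apart.

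Relative to other transcripts, the listed aquaporin transcripts were mostly lower in autotetraploid leaves. Counts were scaled by size factors, so amounts per cell or per leaf were not measured. Of the 18 listed genes, 13 fell and 5 rose, all past the authors' threshold, which 18.9% of all genes tested passed in each direction. Of the aquaporins 72.2% were lower, and of all listed genes 6611 of 13225, a description with no test attached. The median log2 fold change of the 18 was -0.79, against 0.16 over all listed genes. For the 12416 listed genes in the members' range of means it was -0.0019. Listed genes were split almost evenly in direction, so the median of all of them fell among the smallest rises. The families differed in direction. PIP genes fell in 5 of 6 cases, TIP genes in 4 of 4 and NIP genes in 4 of 5, whereas all 3 SIP genes rose. Changes of at least 2-fold were seen for 5 falls and 2 rises, and such changes made up 8.7% (lower) and 6.27% (higher) of all genes tested. Among the 14 aquaporins with a mean of at least 100, 10 fell and 4 rose. Of all 10085 listed genes with such a mean, 4838 (48.0%) were lower and 5247 higher.

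**Figure D1:**
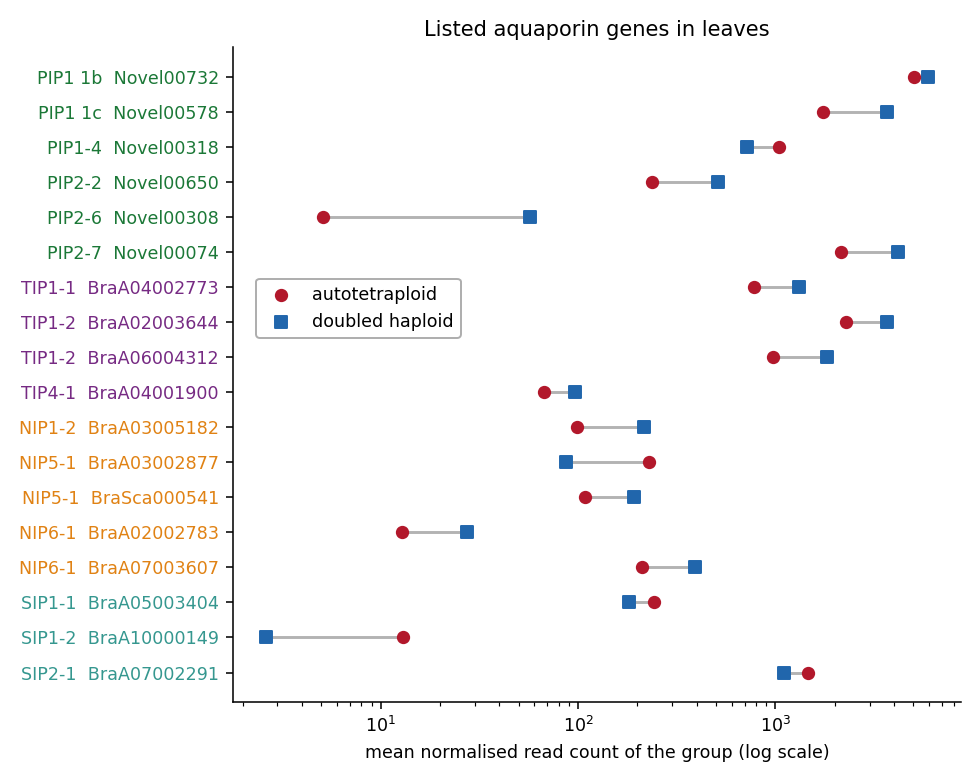
Mean normalised read count of each listed aquaporin gene in autotetraploid leaves (red circles) and doubled haploid leaves (blue squares), on a log scale, with label colours marking the PIP, TIP, NIP and SIP families. The autotetraploid mean lies left of the doubled haploid mean for 13 of 18 genes, with the widest gap for PIP2-6, at 5.11 against 57.4; counts are not corrected for gene length, so rows should not be compared with each other.

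PIP genes, whose products carry water across the plasma membrane, had a median log2 fold change of -1.02. Summed over the 6 genes, the means came to 10202 in autotetraploid leaves and 15100 in doubled haploid leaves, a ratio of 0.676. The 3 PIP2 genes all fell. PIP2 proteins are the more active water channels when made alone in frog oocytes. The gene matching PIP2-6, an isoform known from leaf veins in Arabidopsis (Novel00308), had normalised counts of 6.92, 3.02 and 5.40 in the autotetraploid libraries, against 67.2, 58.2 and 46.9 in the doubled haploid libraries. Every autotetraploid library lay far below every doubled haploid one. The authors' deposited table gave a log2 fold change of -3.49 with an adjusted p of 1.42e-15, an 11.2-fold fall. Its low side rested on 15 reads over the autotetraploid libraries, against 181 over the doubled haploid ones, and the 95% exact counting interval of the fall ran from 6.70-fold to 20.7-fold. Of 1530 listed genes whose mean lay within 2-fold of its own, 6.86% changed more.

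The gene matching PIP2-2 (Novel00650) had normalised counts of 237, 262 and 212 in autotetraploid libraries and of 479, 525 and 536 in doubled haploid libraries. The autotetraploid mean had several exact solutions, and in the one taken the highest autotetraploid library was well under the lowest doubled haploid one. In the authors' deposited table the log2 fold change was -1.12 (adjusted p = 8.52e-21). For the gene matching PIP2-7 (Novel00074), a plasma membrane channel whose delivery in Arabidopsis depends on the syntaxins SYP61 and SYP121, the authors' deposited table gave means of 2162 in autotetraploid leaves and 4177 in doubled haploid leaves. Its log2 fold change of -0.95 (adjusted p = 7.47e-43 in the authors' deposited table) was the closest of the PIP2 genes to 0.

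The PIP1 genes were split. The plasma membrane aquaporin 1c gene (Novel00578) fell 2.13-fold, with means of 1735 in autotetraploid leaves and 3698 in doubled haploid leaves and an adjusted p of 5.69e-54 in the authors' deposited table. The plasma membrane aquaporin 1b gene (Novel00732) had means of 5023 in autotetraploid leaves and 5931 in doubled haploid leaves, per the authors' deposited table, and differed by -0.24 on the log2 scale (adjusted p = 0.000476). Of 853 listed genes of like mean, 93.4% changed more. The gene matching PIP1-4 (Novel00318) was the PIP gene that rose, with means of 1039 in autotetraploid leaves and 722 in doubled haploid leaves and a log2 fold change of 0.53 (adjusted p = 7.17e-09) in the authors' deposited table. Without PIP2-6, whose low side had few reads, the median log2 fold change of the PIP genes was -0.95.

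In Arabidopsis leaves the veins express PIP genes, and vein markers were set beside these values. The list of vascular descriptions held 7 listed genes, 3 higher and 4 lower, with summed means of 4175 in autotetraploid leaves and 10669 in doubled haploid leaves and none at 0. The companion cell sucrose carrier SUC2 (evm.TU.BraA09003807) had means of 2907 in autotetraploid leaves and 6348 in doubled haploid leaves, per the authors' deposited table. Phloem protein 2-like A1 (evm.TU.BraA01001190) had 994 in autotetraploid leaves and 4028 in doubled haploid leaves, per the authors' deposited table. The 3 xylem cysteine proteinase genes of the list rose, with means of at most 38.1 in autotetraploid leaves. The part of vein tissue in the PIP result was not tested.

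TIP genes, which let water into and out of the vacuole, fell in every listed case, by similar amounts. Their log2 fold changes ran from -0.92 to -0.52, with a median of -0.72, and none reached 2-fold. TIP1 channels are the main tonoplast aquaporins of Arabidopsis leaf cells. Of the pair of genes matching TIP1-2, evm.TU.BraA06004312 had means of 968 in autotetraploid leaves and 1831 in doubled haploid leaves, per the authors' deposited table (adjusted p = 2.16e-31). The other, evm.TU.BraA02003644, had means of 2291 in autotetraploid leaves and 3698 in doubled haploid leaves, per the authors' deposited table (adjusted p = 3.36e-23). The gene matching TIP1-1 (evm.TU.BraA04002773) had 782 in autotetraploid leaves and 1320.4 in doubled haploid leaves, per the authors' deposited table. All 3 TIP1 genes thus fell between 1.61-fold and 1.89-fold. TIP4-1 (evm.TU.BraA04001900) had normalised counts of 69.2, 67.6 and 65.9 in autotetraploid libraries and of 102, 93.4 and 94.8 in doubled haploid libraries. The libraries of each group lay close together and did not overlap with the other group. Its adjusted p of 0.0446 in the authors' deposited table was the one nearest the threshold among the 18 genes.

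**Figure D2:**
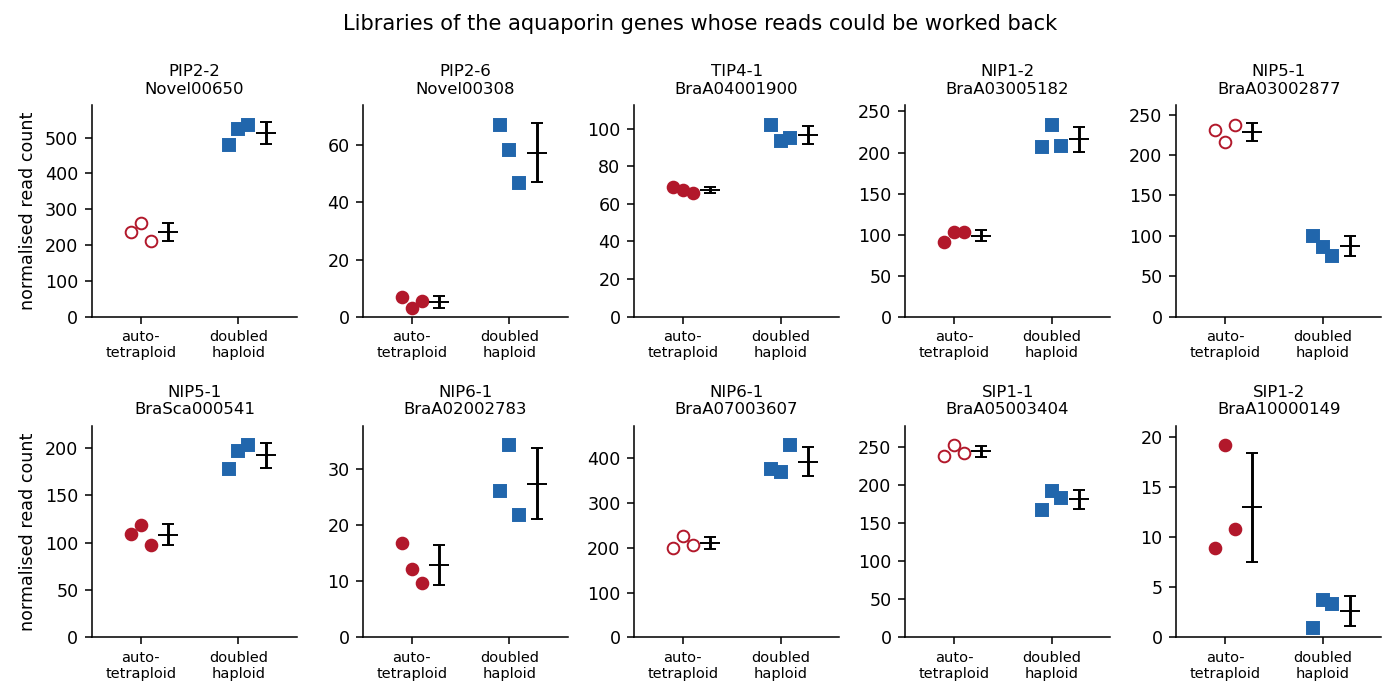
Normalised read count per library for the 10 aquaporin genes whose reads could be worked back from the group means, autotetraploid left (red) and doubled haploid right (blue), with the mean and SD of 3 libraries in black. Filled symbols have a single exact solution; open circles were chosen among 3 or 4 exact solutions as the one with libraries within 2-fold of each other. In all 10 panels the values drawn are apart, as for TIP4-1 at 65.9 to 69.2 against 93.4 to 102. The same held for 99.2% of the 3866 genes with library values. Under solutions not drawn, the groups would overlap for SIP1-1 and could overlap for NIP5-1 of BraA03.

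NIP genes held 4 falls and 1 rise, and 2 genes with the same hit, NIP5-1, went opposite ways. NIP5-1 is a boric acid channel known from boron uptake in Arabidopsis roots. One gene matching it (evm.TU.BraA03002877) had normalised counts of 231, 216 and 238 in autotetraploid libraries, against 100.4, 86.0 and 75.2 in doubled haploid libraries. The autotetraploid values are 1 of 3 exact solutions for their mean, taken because the libraries lay within 2-fold of each other. In that solution every autotetraploid library stood above every doubled haploid one, but under 1 of the others the groups would overlap. The rise was 2.62-fold, with an adjusted p of 9.25e-16 in the authors' deposited table. The other NIP5-1 gene (evm.TU.BraSca000541) had 109, 119 and 97.2 in autotetraploid libraries, against 177, 197 and 203 in doubled haploid libraries. Here every autotetraploid library stood below every doubled haploid one, a fall of 1.78-fold with an adjusted p of 3.93e-06 in the authors' deposited table. Summed over the pair, the means were 336 in autotetraploid and 279.6 in doubled haploid leaves. Whether the copies share reads was not examined, since no sequences of these genes were at hand. Among all hits with exactly 2 listed genes, 376 of 1497 (25.1%) had 1 gene higher and 1 lower, so a split pair was not unusual in this table.

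The pair matching NIP6-1, a boric acid channel of stem nodes that serves young leaves in Arabidopsis, moved the same way. One gene (evm.TU.BraA07003607) had normalised counts of 201, 226 and 206 in autotetraploid and 377, 369.8 and 429 in doubled haploid libraries, and its adjusted p was 7.80e-12 in the authors' deposited table. Its autotetraploid values are 1 of 3 exact solutions, and the groups would be apart under the others too. The second NIP6-1 gene (evm.TU.BraA02002783) had 16.8, 12.1 and 9.72 in autotetraploid and 26.0, 34.2 and 21.8 in doubled haploid libraries. Both fell about alike, at log2 fold changes of -0.90 and -1.09, although the adjusted p of the second was 0.0372 in the authors' deposited table. NIP1-2 (evm.TU.BraA03005182), known in Arabidopsis from aluminium malate uptake by roots, had 90.9, 103 and 103 in autotetraploid and 206, 234 and 208 in doubled haploid libraries. The groups were apart by more than the spread within either, and the log2 fold change was -1.13 with an adjusted p of 3.97e-11 in the authors' deposited table.

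Boron transporters, which move borate out of cells and work beside the NIP channels, had 3 listed genes. Boron transporter 4 (evm.TU.BraA02002681) rose, with means of 1945 in autotetraploid leaves and 709 in doubled haploid leaves, per the authors' deposited table. A probable boron transporter 3 gene (evm.TU.BraA03003482) rose as well, with 733 in autotetraploid leaves and 298 in doubled haploid leaves, per the authors' deposited table. Boron transporter 1 (evm.TU.BraA05004406), which loads boron into the xylem in Arabidopsis, fell, with 221 in autotetraploid and 289.6 in doubled haploid leaves, per the authors' deposited table.

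SIP genes were the family that rose throughout, at a median of 0.43 on the log2 scale. The gene matching SIP2-1 (evm.TU.BraA07002291) had means of 1467 in autotetraploid leaves and 1110.1 in doubled haploid leaves, per the authors' deposited table (adjusted p = 2.27e-06). SIP1-1 (evm.TU.BraA05003404) had normalised counts of 238, 252 and 242 in autotetraploid and 168, 192 and 183 in doubled haploid libraries (adjusted p = 0.00731 in the authors' deposited table). Its autotetraploid values are 1 of 4 exact solutions, and under each of the others the groups would overlap. The rises of SIP2-1 and SIP1-1 were small, at 1.32-fold and 1.35-fold. The gene matching SIP1-2 (evm.TU.BraA10000149) rose 4.94-fold, with 8.89, 19.2 and 10.8 in autotetraploid and 0.896, 3.70 and 3.27 in doubled haploid libraries. It rested on 38 reads against 8 reads, which gave a 95% exact counting interval of 2.32-fold to 12.5-fold, and the adjusted p was 0.00845 in the authors' deposited table. The 706 listed genes of like mean had a median change of 6.07-fold, and 58.6% of them changed more.

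The spread between libraries could be given for 10 of the 18 genes, and the groups did not overlap for any of the 10. The same held for 99.2% of the 3866 genes with library values, all of them chosen by the authors' test, so this says nothing particular about aquaporins. In 6 of the 10 the reads had a single exact solution in both groups. In the other 4 (PIP2-2, the rising NIP5-1 gene, NIP6-1 of evm.TU.BraA07003607 and SIP1-1) the autotetraploid mean had 3 or 4 exact solutions, and the values given are those of the solution whose libraries lay within 2-fold of each other. Under the solutions not taken, the groups would overlap in all 3 cases for SIP1-1 and in 1 case for NIP5-1. A limma fit on log2 of the normalised count plus 1, over the 3866 genes, called all 6 with Benjamini-Hochberg adjustment, as it did 99.9% of those genes. Its difference for PIP2-6 (Novel00308) was -3.30 ± 0.28 (SE), with an adjusted p of 7.23e-05. For SIP1-2 (evm.TU.BraA10000149) it was 1.98 ± 0.42 (SE), with an adjusted p of 0.00345 by limma. The other 4 had differences of -1.12 (NIP1-2), -1.04 (NIP6-1, evm.TU.BraA02002783), -0.83 (NIP5-1, evm.TU.BraSca000541) and -0.51 (TIP4-1), with standard errors of 0.13 to 0.25.

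Proton pumps described as of the plasma membrane and as vacuolar or V-type changed in different ways. Plasma membrane proton pumps, which power transport into the cell, fell in 5 of 5 listed cases (median log2 fold change -1.06). An ATPase 3 gene (evm.TU.BraA10001756) had means of 617 in autotetraploid leaves and 1657 in doubled haploid leaves, per the authors' deposited table. Vacuolar proton pumps, a class that acidifies the vacuole, rose in 33 of 36 listed cases (median log2 fold change 0.44), while TIP genes fell in 4 of 4. The descriptions of V-type ATPase subunits do not name a membrane, so not every listed subunit need belong to the tonoplast. A vacuolar pyrophosphatase gene (evm.TU.BraA09000839) had 3718 in autotetraploid leaves and 1828 in doubled haploid leaves, per the authors' deposited table. Potassium channels and transporters, which move the ion that draws water into cells, had 6 rises and 15 falls and a median log2 fold change of -0.57. Potassium transporter 2 (evm.TU.BraA04003017) rose, with 1171 in autotetraploid leaves and 454 in doubled haploid leaves, per the authors' deposited table, and potassium transporter 1 (evm.TU.BraA03001683) fell, with 194 in autotetraploid leaves and 639 in doubled haploid leaves there.

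Gene families with members known to act on aquaporins or on proton pumps were also listed. The lists took in whole families by the words of the descriptions. Their counts therefore do not stand for genes shown to act on aquaporins. Syntaxins, which guide vesicles to their membranes, had 3 rises and 9 falls. A syntaxin-121 gene (evm.TU.BraA03003755) had means of 712 in autotetraploid leaves and 3234 in doubled haploid leaves, per the authors' deposited table. Another syntaxin-121 gene (evm.TU.BraA05002725) fell less, with 1098 in autotetraploid leaves and 1944 in doubled haploid leaves there. Syntaxin-61 (evm.TU.BraA08002867) rose, with 67.6 in autotetraploid leaves and 21.8 in doubled haploid leaves, per the authors' deposited table. RMA proteins are ubiquitin ligases of the endoplasmic reticulum, and a pepper member sends a PIP2 channel for breakdown. All 7 listed RMA genes rose, with a median of 2.05-fold, and an RMA2 gene (evm.TU.BraA01003144) had 314 in autotetraploid leaves and 105 in doubled haploid leaves, per the authors' deposited table. Calcium-dependent protein kinases, a family with members that phosphorylate aquaporins, had 6 rises and 20 falls. The largest fall was that of kinase 32 (evm.TU.BraA09002777), with 443 in autotetraploid leaves and 11471 in doubled haploid leaves, per the authors' deposited table. For 14-3-3 proteins, which bind phosphorylated proton pumps, there were 7 rises and 2 falls (median log2 fold change 0.29).

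**Figure D3:**
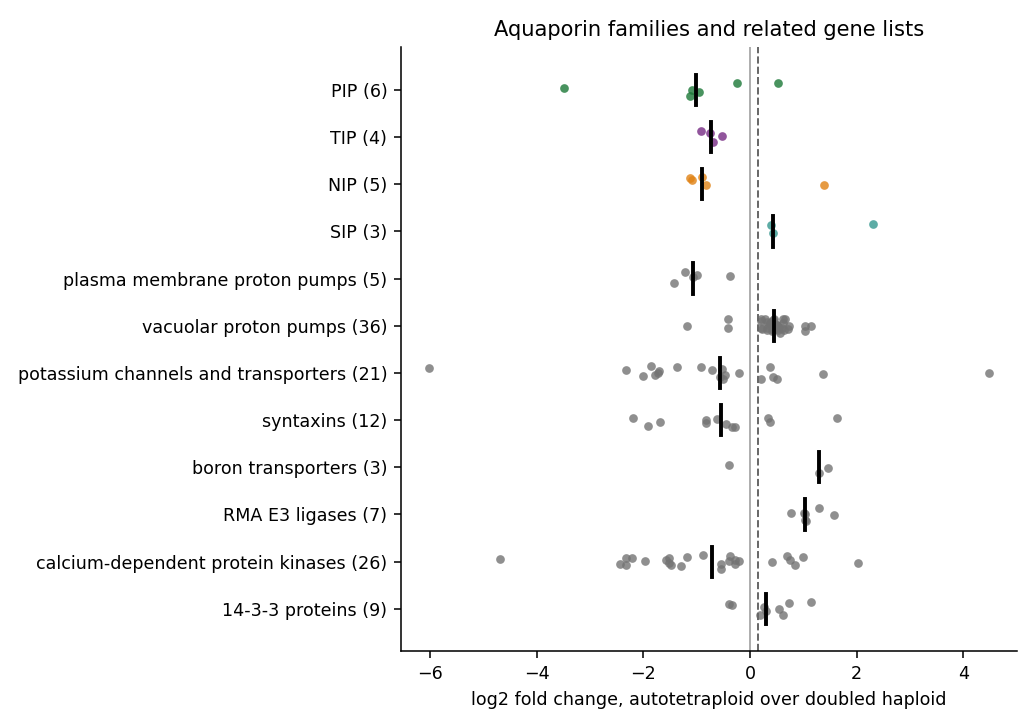
Log2 fold change (autotetraploid over doubled haploid) of each listed gene in the 4 aquaporin families and in 8 related lists, with the number of listed genes in brackets, black bars at the medians and a dashed line at the median of all listed genes (0.16). PIP, TIP and NIP medians lie at -1.02, -0.72 and -0.90 and the SIP median at 0.43, while vacuolar proton pumps centre on 0.44 and plasma membrane proton pumps on -1.06.

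Other tissues were followed by the words in the descriptions. Guard cell descriptions, which by their wording took in a stomatin-like gene, had 4 rises and 6 falls, with summed means of 14264 in autotetraploid leaves and 10056 in doubled haploid leaves. That sum was carried by evm.TU.BraA10000708, with 12016 in autotetraploid leaves and 5254 in doubled haploid leaves. The sums of the other 9 genes went the opposite way, at 2247 in autotetraploid leaves and 4802 in doubled haploid leaves. These 9 held all 6 falls, but rises as well. An ASPARTIC PROTEASE IN GUARD CELL 1 gene (evm.TU.BraA07002420) fell, with 181 in autotetraploid leaves and 1445 in doubled haploid leaves, per the authors' deposited table. Potassium channel KAT1 (evm.TU.BraA09005642) fell as well, with 53.5 in autotetraploid leaves and 184 in doubled haploid leaves there. The anion channel SLAC1 (evm.TU.BraA08002388) rose, with 379 in autotetraploid leaves and 170 in doubled haploid leaves, per the authors' deposited table. Root descriptions had 10 rises and 14 falls, with sums of 13994 in autotetraploid leaves and 14269 in doubled haploid leaves, which became 12206 in autotetraploid leaves and 11134 in doubled haploid leaves without the most abundant gene (evm.TU.BraA03003549). Pollen and flower descriptions had 1 rise and 7 falls, with sums of 999 in autotetraploid leaves and 1872 in doubled haploid leaves. None of these genes was listed at 0 in either group, and the part of such tissue in the aquaporin values was not tested.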

How the data were processed

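Leaf messenger RNA was sequenced from 3 autotetraploid and 3 doubled haploid libraries. The submitters' processing notes name HTSeq 0.6.1, TopHat2 2.0.12, Bowtie2 2.2.3 and DESeq 1.18.0, with no genome build, and an annotation is not given in the sources used here. Of the deposited columns, the authors' signal columns (headed as read counts) hold 1 mean of size-factor-normalised counts per group. The labels call the deposited table FPKM, which neither header nor values bear out. The deposited log2 column equals the log2 ratio of the means within 5e-05. The deposited p-value columns, raw and adjusted, come from the authors' test, and every adjusted p is under 0.05. The number of genes tested was estimated from them, as the median of adjusted p times rank over raw p.

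The planned use of the authors' calls was kept. Counts by direction and medians were computed with Python 3.11.15, pandas 2.3.3, NumPy 2.4.6 and SciPy 1.17.1, with no set test. The members, gene lists and the rule for named genes (per subfamily the highest mean, the smallest adjusted p in each direction and every change of at least 2-fold) were chosen with earlier results of these data known. Lists were patterns over hit descriptions. The reference table matched 0 of the 18 identifiers, so no sequences or coordinates are shown.

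Group means are sums of whole reads over size factors, so reads per library were solved for, using steps of 1 read. All 3385 autotetraploid and 3280 doubled haploid values above 0 and under 100 had exactly 1 solution at the precision printed. Steps made wrong by up to 1% solved 6.33% (autotetraploid) and 7.00% (doubled haploid) of 300 values under 20. The recovered libraries carry no replicate number. For 4 genes (PIP2-2, NIP6-1 of BraA07, NIP5-1 of BraA03 and SIP1-1) the autotetraploid mean had 3 or 4 exact solutions, and the one with libraries within 2-fold was taken; 98.2% of autotetraploid genes with a mean of 50 to 100 were within 2-fold. limma 3.58.1 in R 4.3.3 used log2 of the count plus 1. In simulated data, reads were recovered for 100% of 587 means. limma called 99.5% of 200 genes changed 4-fold among 3866 and 0.218% of the unchanged ones. The real genes had all passed the authors' test and most aquaporins changed less than 4-fold, so the simulation does not check the calls reported. Intervals are exact (Clopper-Pearson, 95%) and cover counting error only. Total reads of each library are not used here.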

Additional observations from a re-analysis of the deposited data

How the results depend on the processing

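Means were also scaled to equal sums over listed genes (0.06 taken off each log2 fold change) or to put the median of listed genes at 0 (0.16 taken off). Both scalings were added after the data were seen. Directions of all 18 genes were the same, but none could have changed, since the smallest rise was 0.40 on the log2 scale. The second of these scalings gave medians of -0.95 (all), -1.18 (PIP), -0.88 (TIP), -1.05 (NIP) and 0.28 (SIP). Its offset is the median of an almost evenly split list, which fell among the smallest rises. At an adjusted p under 0.001, 3 aquaporins rose, 1 of them a SIP gene, and 11 fell. The share of all listed genes at this cut is not given here. Limiting members to changes of 2-fold or more left 2 rises and 5 falls in all (median -1.09), with 0 rises and 3 falls for PIP, 0 falls for TIP, 2 falls for NIP (median -1.09) and 1 rise for SIP (median 2.30). With 1 gene per protein hit, 2 NIP genes fell. Among Arabidopsis hits 8 aquaporins fell, and PIP had 0 rises and 0 falls, since no PIP gene had a Swiss-Prot hit. Of 97 alternative counts and medians whose genes or values differed from those reported, 76 stayed within 1.5-fold or 0.1 log2, the count of 11 falls among them. Leaving out A01 genes or searching any description column gave the same 18 genes, so neither tests anything here.

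The limma refits called 95.6% or more of the genes fitted, all of which had passed the authors' test, so the calls of the 6 genes with exact reads in these refits (6 to 6 of them without each library in turn) say nothing about their stability. Adjusted p for TIP4-1 ran from 0.00603 to 0.0276 and for SIP1-2 from 0.000872 to 0.0116. With a pseudocount of 5, the limma difference was -2.63 for PIP2-6 (Novel00308) and 1.21 for SIP1-2 (evm.TU.BraA10000149), closer to 0 as a larger pseudocount makes low counts. Of the 9 other exact solutions for the 4 genes with several, 4 would let the groups overlap, 3 of them for SIP1-1 and 1 for NIP5-1 of BraA03. No paired analysis was possible because the recovered libraries carry no replicate number. edgeR was not run, since the deposited values are means over libraries, and no member was at 0, so the floor did not apply. Without values per library for 8 genes, their spread is unknown.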

Other observations

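All 6 PIP genes carried identifiers of the kind Novel00074, with no chromosome code, against 575 of the 13225 listed genes (4.35%) and 0 of the 12 TIP, NIP and SIP genes. The place of the PIP genes is therefore not known here. Of the other members, none carried the code A01, and 2 each carried A02, A03, A04 and A07. The 575 genes with such identifiers were near balance in direction, with 274 higher and 301 lower and a median log2 fold change of -0.30.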
